A study of Mus musculus with 10 samples.

Results

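The tripartite motif (TRIM) genes encode a family of ubiquitin ligases and related proteins built from a RING domain, B-box zinc fingers and a coiled coil. The members taken here are the protein-coding genes of the count table whose symbol is Trim followed by a number and, in some, a letter. Trim54, Trim55 and Trim63, which encode the sarcomere-associated MURF proteins, were set aside, which left 65 members of 68 matching genes among 54532 in the table. Hearts of 8-week-old C57BL/6 mice were compared in 2 groups of 5 libraries, one from mice injected with saline and one from mice 24 h after lipopolysaccharide (LPS), the cell wall component of Gram-negative bacteria that sets off Toll-like receptor 4. No allele or transgene is named for either group, and neither LPS dose nor sex nor batch is stated in the labels. Libraries are numbered by mouse, 1 to 5 within each group. A pair of further deposited tables, not used here, name the LPS columns 3 h, so the time of 24 h rests on the labels and the count table. By its title the study asks how Toll-like receptor 4 in heart muscle cells acts on autophagy in sepsis, by way of TRAF6, itself a ubiquitin ligase, and TFEB.

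In a TRIM protein the RING domain binds an E2 enzyme charged with ubiquitin, the coiled coil pairs the molecule with a partner, and the carboxy-terminal domain, most often PRY-SPRY, selects the target. Many members are known from antiviral defence: some are switched on by interferon, and several mark sensors and adaptors of innate immunity with ubiquitin. Others read chromatin, bind RNA, sit on microtubules or take cargo to autophagosomes.

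Symbols were matched to the RefSeq promoter table (build GRCm38.p6, from 250 bases before to 50 bases after an annotated start), which held 65 promoters of 51 of the 65 members. They were searched on both strands for the letters GAAA followed, after any 2 bases, by GAAA again, the core of the element that interferon-activated factors bind. It was found in promoters of 7 of the 11 matched members that rose after LPS, 2 of 11 matched members that were tested and not called, 0 of 10 that fell and 0 of 19 that had too few reads to test. Of all 27025 genes in that table, 3.99% had the letters in a promoter, and 3.44% of all 32851 promoters had them. The members were Trim12a, Trim12c, Trim21, Trim26, Trim30a, Trim30d and Trim34a among those that rose, and Trim2 and Trim5 among those not called. Some of these windows are alike, so these members are not separate counts. Identity was 90.8% between Trim30a and Trim30d, 82.5% between Trim12c and Trim5, and 72.6% between Trim12a and Trim12c. Between Trim12a and Trim5 it was 67.1% end to end. The windows of Trim12a and Trim5 hold the same letters around the match, at another distance from the start, which lowers an end-to-end value. No match in Trim25, Trim56, Trim30b and Trim30c says only that these letters are not in this window. The palindrome of TTC and GAA set 3 bases apart, the letters of the site of dimeric STAT factors, was in promoters of 1 member that rose (Trim30c), 1 that fell (Trim45), 0 not called and 4 not tested, against 9.55% of all genes. A match is a description of letters and not a site in use.

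Sequences are printed below for Trim30a, Trim30d and Trim21, which had some of the largest rises, and for Trim12c beside Trim5, whose windows are alike in letters while the genes differ in their values after LPS. Each is written 5′ to 3′ on the gene's own strand, the minus strand of chromosome 7, and capitals mark the paired GAAA motif or its reverse complement. The windows are chr7:104465144-104465443 (Trim30a, the start farther upstream of 2), chr7:104507800-104508099 (Trim30d), chr7:102565433-102565732 (Trim21), chr7:104353300-104353599 (Trim12c) and chr7:104288057-104288356 (Trim5).
Trim30a: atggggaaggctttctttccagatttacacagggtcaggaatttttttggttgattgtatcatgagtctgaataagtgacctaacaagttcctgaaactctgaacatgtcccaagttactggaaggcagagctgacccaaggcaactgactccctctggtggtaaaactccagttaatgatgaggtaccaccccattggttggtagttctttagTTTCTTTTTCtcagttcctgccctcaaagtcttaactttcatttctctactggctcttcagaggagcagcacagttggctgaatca
Trim30d: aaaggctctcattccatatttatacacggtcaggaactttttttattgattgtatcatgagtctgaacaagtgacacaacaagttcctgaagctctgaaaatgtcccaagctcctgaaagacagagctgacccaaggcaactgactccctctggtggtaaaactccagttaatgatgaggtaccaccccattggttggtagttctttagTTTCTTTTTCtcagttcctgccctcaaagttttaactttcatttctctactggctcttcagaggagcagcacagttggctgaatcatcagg
Trim21: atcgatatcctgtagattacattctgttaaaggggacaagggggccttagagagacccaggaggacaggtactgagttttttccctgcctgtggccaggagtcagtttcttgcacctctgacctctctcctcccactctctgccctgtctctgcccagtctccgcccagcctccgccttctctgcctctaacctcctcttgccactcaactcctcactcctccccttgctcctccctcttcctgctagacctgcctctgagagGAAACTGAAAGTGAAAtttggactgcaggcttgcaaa
Trim12c: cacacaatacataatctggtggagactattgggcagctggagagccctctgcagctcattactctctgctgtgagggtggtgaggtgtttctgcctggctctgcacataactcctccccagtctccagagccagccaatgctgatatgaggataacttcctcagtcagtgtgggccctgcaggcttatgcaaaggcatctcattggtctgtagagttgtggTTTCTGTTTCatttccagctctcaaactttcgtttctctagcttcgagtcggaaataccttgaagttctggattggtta
Trim5: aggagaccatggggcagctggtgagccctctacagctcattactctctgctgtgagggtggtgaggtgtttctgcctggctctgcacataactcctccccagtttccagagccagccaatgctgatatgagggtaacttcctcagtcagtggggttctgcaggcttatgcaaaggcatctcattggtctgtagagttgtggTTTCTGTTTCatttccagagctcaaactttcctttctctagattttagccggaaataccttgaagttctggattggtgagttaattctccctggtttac
In the window of Trim21 there were 2 matches that overlap each other, the first beginning 13 bases after the start. The match began 36 bases before the start in Trim30a, 41 before in Trim30d, 29 before in Trim12c and 49 before in Trim5. Aligned end to end, the windows of Trim30a and Trim30d were identical in 90.8% of alignment columns and those of Trim12c and Trim5 in 82.5%.

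Libraries held 14607969 to 17012372 counts each. Saline replicate 5 stood apart, at -0.563 on principal component 1 (1000 genes of highest variance), between the other saline libraries (-67 to -55.1) and the LPS libraries (43.7 to 55), so the values without it are given wherever leaving it out moved a change by over 1.5 times or altered a call. Cardiomyocyte markers were abundant, with a summed level of 41060 to 49430 CPM (counts scaled to the library size) in saline and 43340 to 47780 CPM in LPS libraries, and 0 of 8 passed the test. Of the 9 tested leukocyte markers of 12, 2 rose and 2 fell, and without saline replicate 5, 3 rose and 2 fell. Their summed levels were 350.9 to 518.9 CPM in saline and 270.6 to 399.8 CPM in LPS libraries. All 7 endothelial markers fell, as did 2 of 6 fibroblast markers and 2 of 6 mural (pericyte and smooth muscle) markers. Over all tested genes 18.9% were called higher and 21% lower. The lymphocyte and neutrophil markers Cd3e, Cd79a and Ly6g were too low to test. Whether cell composition plays a part in the TRIM results was not tested, and in whole hearts fewer cells of a type and less RNA per cell cannot be told apart.

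The name of the set did not hold for 1 member. Trim72 encodes MG53, a striated-muscle protein that seals tears in the cell membrane, and it had the highest level per gene length of the 65 members in saline hearts. Its deposited FPKM (reads scaled to gene length and library size) averaged 82.4 ± 11.7 in saline and 94.3 ± 11.2 in LPS hearts (SD, n = 5 per group). In CPM, Trim72 (ENSMUSG00000042828, GRCm38 chromosome 7, 128003949 to 128011033) was at 213, 147, 168, 165 and 181 in saline replicates 1 to 5 and at 234, 189, 201, 176 and 180 in LPS replicates 1 to 5. The groups overlapped, and the log2 fold change of 0.17 ± 0.11 (SE) did not pass (edgeR quasi-likelihood test, adjusted p = 0.266).

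Summed over the 65 members, the level was 264.7 ± 40.9 FPKM in saline and 524 ± 44.9 FPKM in LPS hearts (SD, n = 5 per group). The saline libraries lay between 237 and 335 FPKM, with replicate 5 at the top, and the LPS libraries between 456 and 572, without overlap. Trim72 made up 31.5% ± 4.98 of this sum in saline and 18.1% ± 2.24 in LPS hearts. A list of 12 members on chromosome 7, namely Trim6, Trim21, Trim68 and the Trim5, Trim12, Trim30 and Trim34 genes, made up 13.3% ± 8.98 and 45.7% ± 4.45. In saline hearts the order after Trim72 was Trim35, at 22.8 ± 2.23 FPKM, Trim28, Trim25 and Trim44, at 13.8 ± 0.987, 13.4 ± 7.1 and 12.8 ± 1.15 FPKM, and these last 3 did not differ beyond their spread. In LPS hearts Trim30a (99.98 ± 11.8 FPKM) and Trim72 were highest, within each other's spread, followed by Trim25 (48.6 ± 2.27), Trim21 (39.1 ± 12.5), Trim12c (28.2 ± 6.65) and Trim56 (26.8 ± 3.91).

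**Figure D1:**
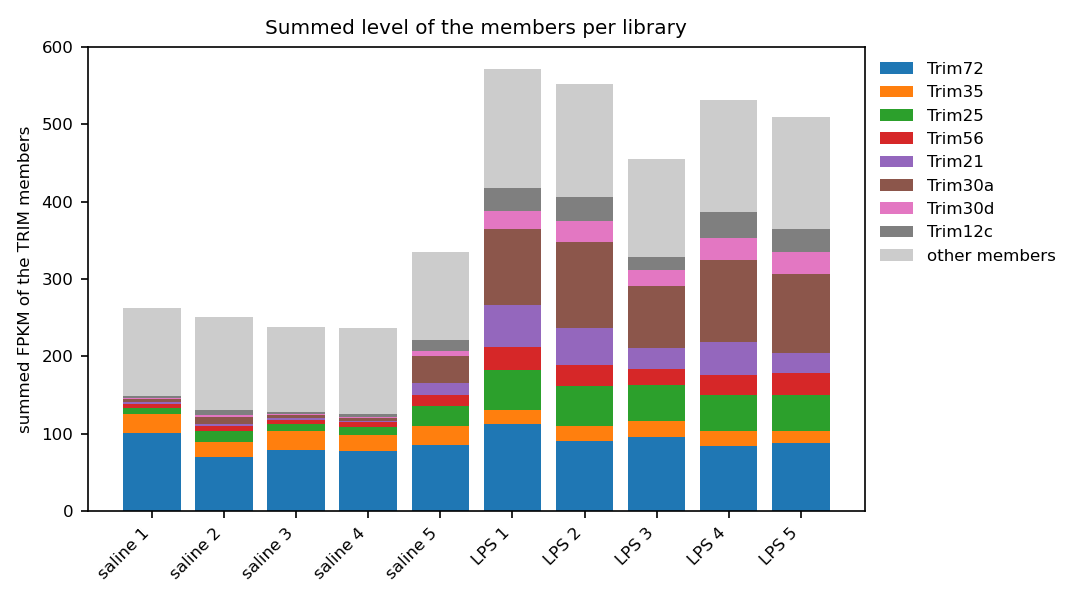
Summed FPKM of the 65 TRIM members (y axis) in each of the 10 libraries (x axis), with the part of 8 members in colour and the rest in light grey. The LPS libraries reach 456 to 572 FPKM and the saline libraries 237 to 335, with saline replicate 5 the highest of its group, and the segment of Trim72 stays of similar height throughout.

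After LPS, 12 of the 65 members rose and 16 fell, while 13 were tested and not called and 24 had too few reads to be tested. The rises ran from 3.21-fold for Trim34a to 10.8-fold for Trim30d, and all 12 exceeded 2-fold. Without saline replicate 5 their log2 fold changes ran from 1.88 (Trim34a) to 5.40 (Trim30c), in place of 1.69 to 3.44. The falls ran from 1.28-fold for Trim35 to 3.37-fold for Trim62 and 3 exceeded 2-fold. Over all 13864 tested genes, 39.9% were called, 18.9% higher and 21% lower, and 8.99% were called and at least 2-fold higher and 7.8% at least 2-fold lower. Of the 41 tested members 29.3% rose and 39.0% fell, and their median log2 fold change was -0.09, beside -0.02 for all tested genes. The 5 LPS libraries lay above the 5 saline libraries in 12 of the 41 tested members, beside 14.3% of all tested genes. These were the 12 members that rose. The LPS libraries lay below in 9 of the 41, beside 14.1% of all tested genes. These 9 were among the 16 that fell, and in the other 7 of the 16 the groups overlapped. Trim6, Trim30b and Trim30c met the filter on low counts through the LPS libraries only, and Trim59 through the saline libraries only, so these counts carry the filter's choice. With saline replicate 5 left out 13 members rose, beside 21% of all genes, and 18 fell, beside 22.9%, and all 12 and 16 calls remained. Scaling to the upper quartile called 12 members higher and 17 lower, beside 14.4% and 31.8% of all genes, and scaling to the total count 12 and 21, beside 12.3% and 41.6%. With the replicate number as a block 13 rose and 16 fell, beside 18.6% and 20.5%.

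**Figure D2:**
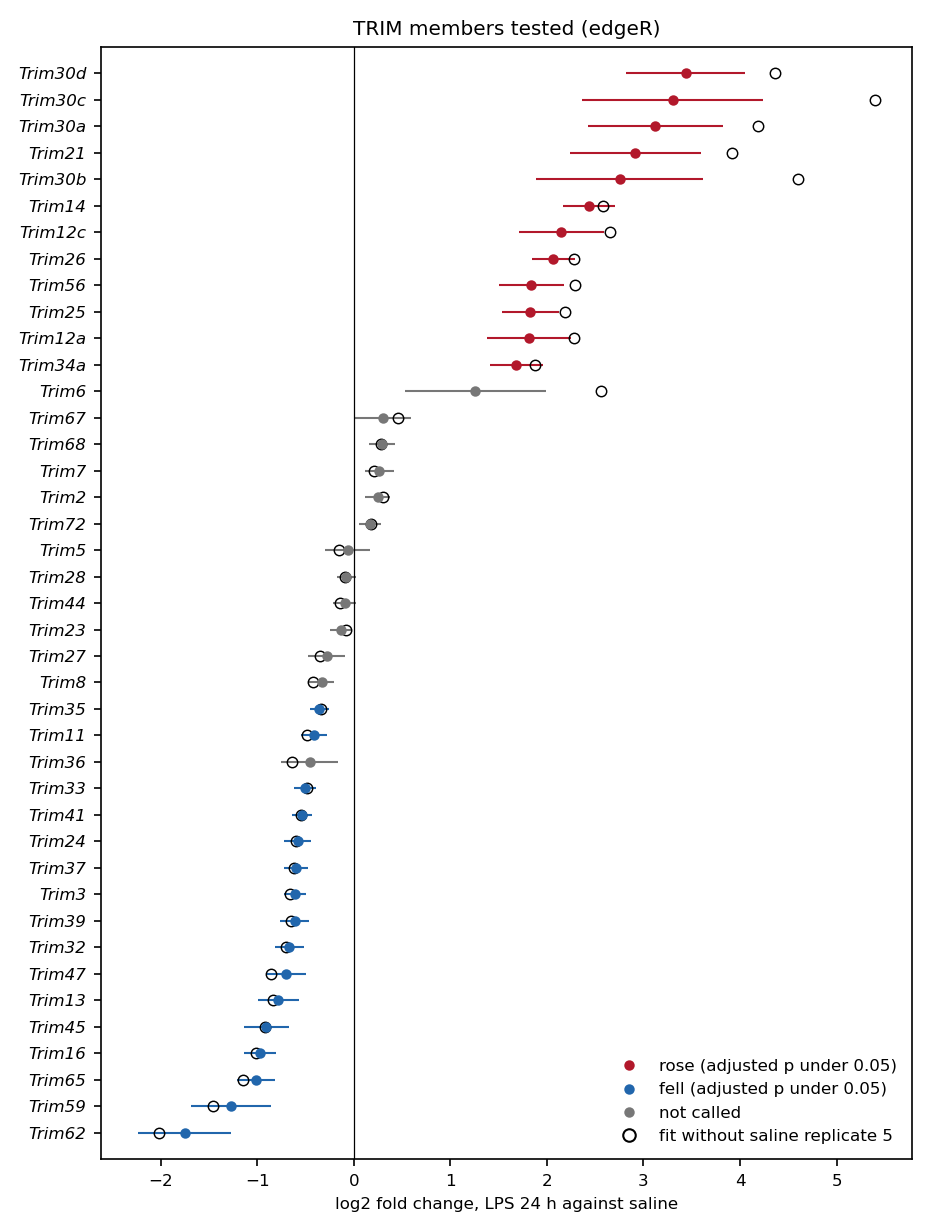
Log2 fold change of the 41 tested TRIM members between LPS and saline hearts (x axis, edgeR), with bars for 1 standard error and open circles for the fit without saline replicate 5. The 12 members that rose lie between 1.69 and 3.44 and the 16 that fell between -1.75 and -0.36, and the open circles of the Trim30 genes, Trim21 and Trim6 lie farthest to the right of their filled points.

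With all libraries included, Trim30d, Trim30c and Trim30a gave the largest rises. Trim30a, which in mice is induced through Toll-like receptors and restrains NF-kappaB by removing TAB2 and TAB3, lies on chromosome 7 from 104409025 to 104465193 (ENSMUSG00000030921, minus strand). It was at 15.6, 35.8, 17.2, 16 and 135 CPM in saline replicates 1 to 5 and at 377, 427, 312, 413 and 386 CPM in LPS replicates 1 to 5. Every LPS library was above every saline library, and saline replicate 5 lay between the groups. The log2 fold change was 3.12 ± 0.70 (SE, adjusted p = 0.00772, edgeR), and 4.18 (adjusted p = 4.31e-07) without saline replicate 5.

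Trim30d, a close relative of Trim30a (ENSMUSG00000057596, 104470014 to 104507849), was lower in level, and its larger rise differed from that of Trim30a by less than its standard error. It was at 3.96, 6.74, 3.7, 3.13 and 24.4 CPM in saline and at 80.3, 99.5, 74.9, 96.7 and 101 CPM in LPS replicates 1 to 5. No library of one group entered the range of the other, and the log2 fold change was 3.44 ± 0.61 (SE, adjusted p = 0.00229, edgeR) or 4.37 without saline replicate 5. Trim30c (ENSMUSG00000078616, 104382065 to 104400837) was near absence in saline replicates 1 to 4, at 0.522, 1.28, 0.28 and 0.521 CPM, and at 11.7 CPM in saline replicate 5. Its LPS libraries were at 38.6, 31, 14.7, 34.6 and 19.9 CPM, again above all saline libraries. The log2 fold change of Trim30c was 3.30 ± 0.94 (adjusted p = 0.0222) and 5.40 without saline replicate 5, and the call was lost without saline replicate 2 (adjusted p = 0.0556). Trim30b (ENSMUSG00000052749, 104355382 to 104369884) was at 0.365, 0.836, 0.224, 0 and 5.23 CPM in saline and at 8.79, 8.4, 6.33, 11.2 and 9.74 CPM in LPS libraries. Its groups did not overlap, but the rise of 2.76 ± 0.87 (adjusted p = 0.0326, edgeR) missed the threshold under 8 of 18 alternatives, 7 of which left out a single library other than saline replicate 5, and was 4.60 without saline replicate 5. Trim30a and Trim30d share 5.98% and 7.49% of their 50-base transcript stretches exactly with another gene. Shorter stretches and matches with mismatches were not looked at, so how many of their reads were split between copies is not known.

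Trim21 encodes a cytosolic receptor for antibody-coated particles that also tags them for the proteasome. The gene (ENSMUSG00000030966, chromosome 7, 102557921 to 102565486) was at 7.93, 13, 8.08, 6.66 and 53.9 CPM in saline and at 185, 163, 94.9, 146 and 86 CPM in LPS replicates 1 to 5. The LPS libraries were all higher, replicates 3 and 5 less so than the others. Its log2 fold change was 2.92 ± 0.68 (adjusted p = 0.00904, edgeR), or 3.92 once saline replicate 5 was left out.

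Trim12c (ENSMUSG00000057143, 104338754 to 104353362) and Trim12a are mouse relatives of TRIM5, the human and monkey factor that restricts retroviruses. Trim12c was at 11.5, 24, 11.8, 15.3 and 48.2 CPM in saline and at 106, 106, 58.9, 119 and 101 CPM in LPS libraries, without overlap (log2 fold change 2.15 ± 0.44 SE, adjusted p = 0.00465, edgeR). Trim12a rose by 1.81 ± 0.44 (adjusted p = 0.0102) and Trim34a, a gene induced by interferon, by 1.69 ± 0.27 (adjusted p = 0.000511). Trim5 itself, which lies between Trim34a and Trim12a, lay between 2.08 and 4.17 CPM in saline libraries and between 2.09 and 3.04 CPM in LPS libraries, overlapping, with a log2 fold change of -0.06 ± 0.23 (adjusted p = 0.862). Of the 50-base stretches of Trim5 transcripts 36.3% occur in another gene, as do 33% of those of Trim12c, mostly in each other, so reads of these genes may have been split. The same holds for Trim34a, of whose stretches 39.8% occur in Trim34b, which had 52 reads over the 10 libraries and was not tested.

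Along chromosome 7, 10 members from Trim6 to Trim30d occupy 289 kb (104218793 to 104507849), with Trim21 and Trim68 at lower coordinates. Of the 12 members on the chromosome 7 list, 11 were tested and 8 rose, 0 fell, and Trim5, Trim6 and Trim68 were not called, against 18.9% of all tested genes called higher. The count depends on which genes the list takes in: it leaves out Trim3 (105604463 to 105633571), which lies nearer to the 10 members than Trim21 and fell, and also Trim28, Trim66 and Trim72 elsewhere on the chromosome, of which 0 were called. It also includes Trim6, Trim30b and Trim30c, which met the filter through the LPS libraries only, so the count is a description only. Without saline replicate 5, 9 rose. Trim6, whose product makes free ubiquitin chains that activate the kinase IKK-epsilon, was the one added. It was at 0.678, 1.39, 0.449, 0.174 and 5.76 CPM in saline and at 4.43, 4.2, 2.52, 3.93 and 5.09 CPM in LPS libraries. Saline replicate 5 was above all 5 LPS libraries for Trim6, whose log2 fold change of 1.26 ± 0.73 (adjusted p = 0.209, edgeR) became 2.56 (adjusted p = 8.68e-05) without that library. For Trim68 the change was 0.29 ± 0.14 on the log2 scale (adjusted p = 0.105).

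**Figure D3:**
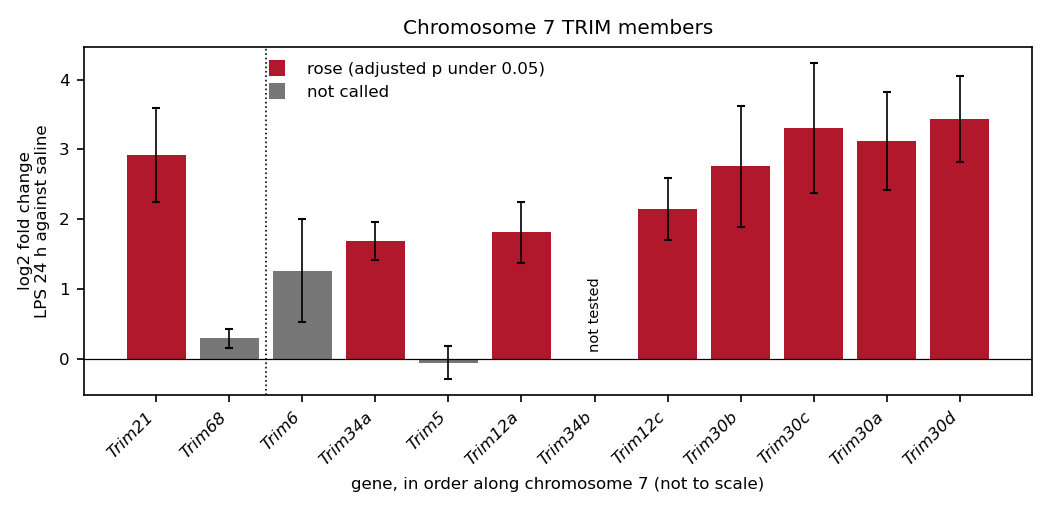
Log2 fold change with its standard error (y axis, edgeR) of the 12 TRIM members on the chromosome 7 list, in gene order (x axis, not to scale); the dotted line sets Trim21 and Trim68 apart from the 10 members that occupy 289 kb. The 4 Trim30 genes at the right lie between 2.76 and 3.44 while Trim5, among rising neighbours, lies at -0.06, and Trim34b was not tested.

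Among members tied to innate signalling outside this region, Trim25, Trim56, Trim26 and Trim14 rose, and 7 others, Trim65 among them, fell. Trim25, which with Riplet attaches ubiquitin chains to the RNA sensor RIG-I, is on chromosome 11 (ENSMUSG00000000275, 88999376 to 89020293). Its level was 45.5, 78.4, 48.5, 56.8 and 138 CPM in saline and 273, 274, 254, 252 and 250 CPM in LPS replicates 1 to 5. The LPS libraries were close together and far above saline (log2 fold change 1.83 ± 0.29 SE, adjusted p = 0.000795, edgeR). Trim56, which acts on the DNA sensing proteins cGAS and STING and in Toll-like receptor 3 signalling, is on chromosome 5 (ENSMUSG00000043279, 137105644 to 137116209). It was at 43.2, 54.5, 42.4, 49 and 134 CPM in saline and at 263, 242, 176, 231 and 243 CPM in LPS libraries, again apart (1.84 ± 0.34, adjusted p = 0.00216).

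Trim26, linked to the turnover and activation of interferon signalling proteins, is on chromosome 17 (ENSMUSG00000024457, 36837134 to 36859398). It was at 20.5, 24.3, 20.1, 19.7 and 37.5 CPM in saline and at 137, 116, 77.4, 104 and 77.7 CPM in LPS libraries. All LPS libraries were well above all saline libraries, and the log2 fold change was 2.07 ± 0.22 (SE, adjusted p = 3.03e-05, edgeR). Trim14 lacks a RING domain and serves as an adaptor at the mitochondrial protein MAVS. The gene (ENSMUSG00000039853, chromosome 4, 46493781 to 46536141) was at 1.2, 2.51, 1.46, 2.08 and 2.79 CPM in saline and at 16.6, 11.2, 8.29, 7.29 and 10.8 CPM in LPS libraries. All LPS libraries were above saline, with the smallest adjusted p of the members under edgeR (2.43 ± 0.27, adjusted p = 9.97e-06). The exons of Nans on the other strand cover 31.3% of the exonic bases of Trim14, and no source used here says if reads were counted by strand. Nans itself fell, with a log2 fold change of -0.60 ± 0.18 (adjusted p = 0.0178).

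**Figure D4:**
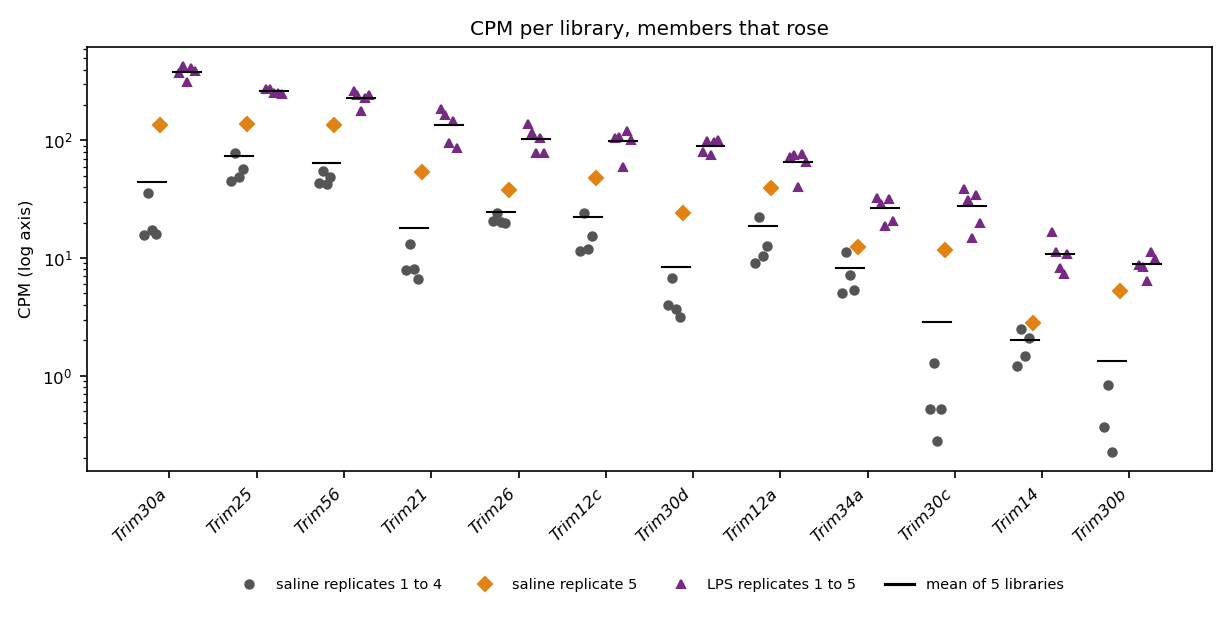
CPM on a log axis (y) of the 12 TRIM members that rose (x), with 1 point per library and lines for group means; the value of 0 of Trim30b in saline replicate 4 cannot be drawn. All LPS triangles lie above all saline points for each gene, and saline replicate 5 (diamonds) is the highest saline library for each.

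In all 12 rising members saline replicate 5 was the highest of the saline libraries. A place between the groups was not particular to these members, as this library was at -0.563 on principal component 1. On the scale of log2(CPM + 0.1), it had gone between 25.9% (Trim14) and 84.4% (Trim30b) of the way from the mean of saline replicates 1 to 4 to the LPS mean, with a median of 64.0%. Saline replicate 2 had gone between 11.7% (Trim26) and 43.6% (Trim34a) of the way from the mean of saline replicates 1, 3 and 4, with a median of 25.0%.

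Members that fell included 7 of the 14 tested on the list tied to innate signalling outside chromosome 7, beside 21% of all tested genes. Some chromatin readers and members with NHL repeats fell as well, and Trim32 is counted both on that list and among the NHL members. The largest falls were in Trim62, Trim59, Trim65, Trim16, Trim45 and Trim13. Trim62, a ligase that activates the fungal-defence adaptor CARD9 (ENSMUSG00000041000, chromosome 4, 128883580 to 128911328), was at 3.18, 2.06, 2.69, 1.62 and 0.356 CPM in saline and at 0.899, 0.545, 0.491, 0.246 and 0.727 CPM in LPS libraries. Saline replicate 5 lay among the LPS libraries, and the log2 fold change was -1.75 ± 0.48 (SE, adjusted p = 0.0103, edgeR; -2.01 without it, and adjusted p = 0.0759 with limma voom). Trim59, which has a membrane anchor (ENSMUSG00000034317, chromosome 3, 69035288 to 69044755), was at 1.83, 2.4, 1.46, 1.22 and 0.654 CPM in saline and at 0.484, 0.856, 0.307, 0.409 and 1.09 CPM in LPS libraries. Its groups overlapped through saline replicate 5 and LPS replicates 2 and 5, and the fall (-1.27 ± 0.41, adjusted p = 0.0235, edgeR) lost its call in 5 fits, those without saline replicates 1 and 2 and LPS replicates 1, 3 and 4 (highest adjusted p = 0.0793).

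Trim65, which attaches ubiquitin to the RNA sensor MDA5, is on chromosome 11 (ENSMUSG00000054517, 116121846 to 116131128). It was at 10.1, 12.4, 11.6, 12.5 and 6.54 CPM in saline and at 4.98, 4.98, 6.94, 3.93 and 5.31 CPM in LPS libraries. Saline replicate 5 alone entered the LPS range, and the log2 fold change was -1.02 ± 0.20 (SE, adjusted p = 0.000895, edgeR). Trim65 and its neighbour Trim47, which also fell (-0.70 ± 0.20, adjusted p = 0.015), share 225 exonic bases on the same strand. Trim16, which in human cells joins galectin-3 at damaged lysosomes and recruits the autophagy machinery (ENSMUSG00000047821, chromosome 11, 62820231 to 62850808), was at 8.97, 8.53, 7.85, 7.29 and 6.83 CPM in saline and at 5.26, 3.5, 4.05, 3.03 and 4.22 CPM in LPS libraries. The groups did not overlap (-0.97 ± 0.17, adjusted p = 0.00037, edgeR).

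Trim45, a ligase with a filamin-type domain (ENSMUSG00000033233, chromosome 3, 100922202 to 100936920), was at 2.97, 3.79, 3.08, 4.57 and 3.33 CPM in saline and at 2.01, 2.8, 1.47, 1.31 and 1.89 CPM in LPS libraries. The highest LPS library was just under the lowest saline library (-0.90 ± 0.23 SE, adjusted p = 0.00702, edgeR). Trim13, a ligase of the endoplasmic reticulum membrane (ENSMUSG00000035235, chromosome 14, 61598247 to 61605946), was at 5.79, 5.57, 7.4, 7.81 and 5.29 CPM in saline and at 3.04, 3.66, 5.4, 2.46 and 3.85 CPM in LPS libraries. LPS replicate 3 alone entered the saline range (-0.78 ± 0.21, adjusted p = 0.00879, edgeR).

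Trim35, the most abundant of the falling members (ENSMUSG00000022043, chromosome 14, 66297031 to 66311424), encodes a ligase reported to act on IRF7. It was at 108, 86.9, 107, 92.8 and 104 CPM in saline and at 77.1, 82, 86.5, 79.2 and 64.7 CPM in LPS replicates 1 to 5. Its groups met without crossing, and the fall was small (-0.36 ± 0.10 SE, adjusted p = 0.00999, edgeR).

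**Figure D5:**
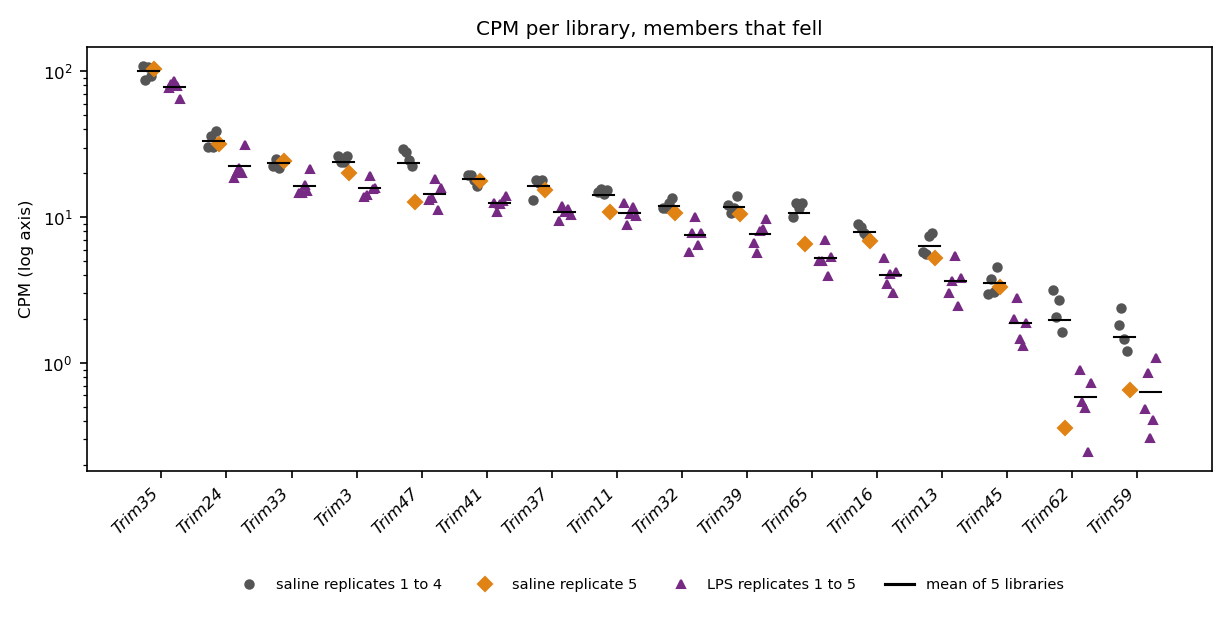
CPM on a log axis (y) of the 16 TRIM members that fell (x), with 1 point per library and lines for group means. The log2 fold changes lie between -1.75 and -0.36, and saline replicate 5 (diamonds) lies within the LPS range for Trim47, Trim11, Trim65, Trim13, Trim62 and Trim59.

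Chromatin readers of the family carry a PHD finger and a bromodomain. Trim24, a cofactor of nuclear receptors, and Trim33, a ligase and cofactor of SMAD4, fell, with log2 fold changes of -0.58 ± 0.14 and -0.51 ± 0.12 (adjusted p = 0.00423 and 0.00302, edgeR). Trim28, the corepressor of KRAB zinc finger proteins, averaged 54.6 ± 3.98 CPM in the saline libraries and 51.8 ± 6.82 CPM in the LPS libraries (SD, n = 5 each; adjusted p = 0.585, edgeR). The fourth, Trim66, was not tested. Among the 3 tested members with NHL repeats, Trim3 fell by 0.61 ± 0.12 on the log2 scale and Trim32, whose human counterpart is mutated in a limb-girdle muscular dystrophy, by 0.67 ± 0.15 (adjusted p = 0.000885 and 0.00285), while Trim2 was not called (0.25 ± 0.13, adjusted p = 0.141), although it passed upward without LPS replicate 3 (adjusted p = 0.0408). Of the microtubule-binding members with a COS box, Trim36 and Trim67 were tested and not called (adjusted p = 0.248 and 0.44), and Trim36 passed downward without saline replicate 5 (adjusted p = 0.0484). The remaining falls were in Trim37 (-0.60 ± 0.12), a MATH-domain ligase, Trim39 (-0.61 ± 0.15), Trim41 (-0.54 ± 0.10) and Trim11 (-0.41 ± 0.13). The first 3 had adjusted p of 0.00119, 0.00548 and 0.000953 and no overlap between the groups. Trim11 was lost as a call in 7 of the 10 fits that left out a library (adjusted p up to 0.0915).

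Members were placed in at most 1 domain class, and those with a COS box were a class of their own, not counted under PRY-SPRY. The 22 tested members of the PRY-SPRY class went both ways, 8 rising and 8 falling. The 3 tested members not assigned to a class, Trim12a, Trim30b and Trim30c, all rose, and Trim30b and Trim30c met the filter through the LPS libraries only. The 2 tested members of the transmembrane class fell. The 8 tested members with PHD-bromodomain, NHL or COS domains included 4 that fell and 0 that rose. Over all tested genes 18.9% rose and 21% fell, and with 8 members a count of 0 rises is not far from that share. On the list of 19 members tied to innate signalling outside chromosome 7, 14 were tested, of which 4 rose and 7 fell, 8 without saline replicate 5, beside 18.9% of all tested genes higher and 21% lower. The list of 12 members tied to autophagy had 10 tested, of which Trim21 rose and 5 fell (Trim13, Trim16, Trim32, Trim37 and Trim65), beside 21% of all genes called lower. With total count scaling, which called 41.6% of all genes lower, 8 fell. Trim13, Trim32 and Trim65 are on the innate signalling list as well as the autophagy list, so their falls are counted in each.

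Of the 13 members tested and not called, adjusted p lay between 0.0508 and 0.862 and log2 fold changes between -0.46 and 1.26. Trim8, which acts in TAK1 and SOCS1 signalling, was closest to the threshold (-0.33 ± 0.13, adjusted p = 0.0508, edgeR) and passed downward without saline replicate 5 (adjusted p = 0.00662). Trim44 was at 68.7 ± 6.44 and 64.5 ± 12 CPM, and Trim23, whose carboxy-terminal part is a small GTPase of the ARF type, at 25.99 ± 2.63 and 23.8 ± 3.37 CPM, each in the order saline, LPS (SD over 5 libraries). The 24 members not tested had at most 67 reads each over the 10 libraries (Trim15), and 5 of them, Trim31, Trim42, Trim52, Trim61 and Trim71, were listed at 0 in all libraries. Trim38, known from macrophages as a brake on Toll-like receptor signalling, had 4 reads in saline and 14 in LPS libraries.

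Relatives outside the rule were Pml, Mid1, Mid2, Mefv and the excluded Trim54, Trim55 and Trim63. Of these 7, 6 were tested, and Pml, the organiser of nuclear bodies, Mid1, a microtubule-bound ligase, and Trim54 rose while Mid2 and Trim63 fell. Pml averaged 27.6 ± 25.5 CPM in saline and 233 ± 34.5 CPM after LPS (SD, n = 5 each), a rise of 3.08 ± 0.54 on the log2 scale (adjusted p = 0.0021, edgeR; 3.83 without saline replicate 5), and Mid1 averaged 3.12 ± 0.89 and 23 ± 7.44 CPM (2.88 ± 0.25, adjusted p = 3.03e-06). Mid2, the close relative of Mid1, fell by 0.76 ± 0.14 on the log2 scale (adjusted p = 0.000748). Without saline replicate 5, Trim55 passed upward as well, and so did the pyrin gene Mefv. Mefv met the filter there through LPS libraries only, so its call carries the filter's choice.

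Among 12 tested E2 enzymes, the partners of RING ligases, 4 rose and 0 fell, beside 18.9% and 21% of all genes, while with total count scaling 5 fell, a share like the 41.6% of all genes called lower there. Ube2l6, which carries the ubiquitin-like protein ISG15, rose by 2.33 ± 0.33 and Ube2e1 by 0.84 ± 0.15 on the log2 scale (adjusted p = 0.000451 and 0.000469, edgeR), and the smallest rise was that of Ube2l3 (0.26 ± 0.08). Of 18 genes of RNA and DNA sensing 10 rose and 1 fell, beside 18.9% and 21% of all genes. Without saline replicate 5, 12 rose and 1 fell, beside 21% and 22.9% of all genes, and the rises added were Tmem173 and Tab2. Largest were the rises of the sensors Dhx58 (4.10 ± 0.77) and Ifih1 (3.50 ± 0.79), the latter encoding MDA5, the target of Trim65, and Tab1, a partner of the kinase TAK1, fell (-0.46 ± 0.13). With upper quartile or total count scaling 4 of the 18 fell, and 2 without LPS replicate 3 or LPS replicate 5. Of 14 genes of interferon receptor signalling 11 rose and 0 fell (without saline replicate 5, Tyk2 fell, with a log2 fold change of -0.36 and an adjusted p of 0.0443), with Socs3 (4.08 ± 1.06) and Socs1 (3.92 ± 1.03), feedback inhibitors of cytokine receptors, at the top and the receptor gene Ifnar2 (0.73 ± 0.14) lowest. Saline replicate 5 was included in these values, and without it Socs3, Socs1, Dhx58 and Ifih1 were at 6.13, 5.90, 5.18 and 4.61.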

How the data were processed

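Hearts of 5 saline and 5 LPS mice were measured by RNA sequencing (Illumina TruSeq libraries from total RNA, per the labels' protocols). The authors deposited raw read counts per gene with FPKM values beside them, per the file headers, scaled by gene length in bases and by a library size that was 0.776 to 1.09 times the total count. Bowtie 0.12.2 and mm9 are named in the submitters' processing notes, and neither the counter nor its strand setting is given there. Gene coordinates equalled those of GENCODE M21 (GRCm38) for 63 of 65 members, so they are given as GRCm38. Other deposited tables were not used here.

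Counts were tested with R 4.3.3 and edgeR 4.0.16: filterByExpr (minimum count 10, total 15; 13864 genes kept), TMM scaling, robust quasi-likelihood F-test, Benjamini-Hochberg adjustment over all tested genes, threshold 0.05, SE from the F statistic. CPM are counts scaled to the effective library size. FPKM were used for levels between genes only and in no test. P-values measure the spread between libraries. Saline and LPS mice share replicate numbers but are different mice, and a replicate number marked no shared deviation. The alternatives were other scalings (RLE, upper quartile, total count), other filters, DESeq2 1.42.0, limma 3.58.1 voom, a replicate block and leaving out each library.

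Members and lists were chosen with earlier results of these data known. Values per library are given for Trim72, for the 8 largest rises and 6 largest falls among called members (mean over all libraries of 1 CPM or more), and for the 3 next most abundant members. From each list of non-members the 2 highest and the lowest change past the threshold are named. Other members are named to account for all of them. Mefv without saline replicate 5, Trim5 and Trim6 per library, and the members below the filter were singled out after their values were seen.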

Additional observations from a re-analysis of the deposited data

Results flagged for a closer look

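In the 82 groups of 5 libraries looked at (41 tested members, 2 groups each), 13 had 1 library whose gap to the nearest other exceeded Dixon's 95% limit, as a share of the group's range. About 1 group in 20 would pass this limit when nothing is amiss. Of the 13 libraries, 10 were saline replicate 5. It stood high for Trim30a (135.1 CPM), Trim56 (133.9 CPM), Trim21 (53.9 CPM), Trim26 (37.5 CPM), Trim30d (24.4 CPM), Trim30c (11.7 CPM), Trim2 (11.7 CPM), Trim6 (5.76 CPM) and Trim30b (5.23 CPM), and low for Trim11 (10.8 CPM). Of these, Trim2 and Trim6 were not called and Trim11 fell. LPS replicate 5 stood high for Trim44 (85.5 CPM) and Trim24 (31.3 CPM), and LPS replicate 3 stood low for Trim12a (39.9 CPM).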

How the results depend on the processing

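Of the 28 called members, 23 kept direction and call under all 18 alternatives, and 0 of the 41 tested members gave a reversed call. Calls were lost for Trim30b in 8 alternatives, Trim11 in 7, Trim59 in 5, and Trim30c and Trim62 in 1 each. Of the 13 members not called, 10 passed in at least 1 alternative. The number of members that rose lay between 10 and 13 and the number that fell between 14 and 21, the latter with total count scaling. Leaving out single libraries gave 10 to 13 rises and 14 to 18 falls. DESeq2 gave 12 and 16. With the replicate block, 13 rose and 16 fell, the added rise being Trim6 (adjusted p = 0.0461). Same-numbered libraries did not deviate together (correlations of -0.0687 to 0.181). Under total count scaling the median over all genes moved by -0.27 (log2), and under upper quartile scaling by -0.16, and the share of higher calls among all called genes went from 47.3% to 22.9% and 31.1%. Members near 1 CPM rest on few reads: Trim62 and Trim59 had 41 and 43 reads over the LPS libraries.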

Other observations

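Among the 24 members below the filter, 5 had a ratio of LPS to saline reads whose counting interval did not include 1, without a test between groups. Trim66, the fourth member with a PHD finger and a bromodomain, had 25 reads over the saline and 4 over the LPS libraries, a ratio of 0.205 (0.0518 to 0.593). Trim46 had 41 and 15 reads, a ratio of 0.468 (0.241 to 0.864). Higher after LPS in pooled reads were Trim34b, with 17 and 35 reads and a ratio of 2.64 (1.44 to 5.02), and Trim10 and Trim38, each with 4 and 14 reads and a ratio of 4.48 (1.41 to 18.7). For Trim34b, 18 of the LPS reads were in LPS replicate 5 and 0 in LPS replicate 1, and 12 of the saline reads were in saline replicate 5. Library by library, the groups overlapped in CPM for all of these 5 members but Trim38. For Trim38, LPS replicates 4 and 5 had 1 read each, as did saline replicates 2 to 5. Their order in CPM came from library size alone. Trim34b shares 56.8% of its 50-base transcript stretches with Trim34a, which rose. Each interval is exact (binomial, 95%) and reflects counting alone.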
